A study of Mus musculus with 5 samples.

Results

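The gene models described here are the rows of a gene-level count table that carry an Ensembl identifier but no gene symbol. The table holds 11194 gene models, of which 10826 have a symbol and 368 do not. 2 of the latter lie on the mitochondrial genome and were left out, so 366 models remained. The counts come from RNA recovered with an antibody to Staufen1, a protein that binds double-stranded RNA, from skeletal muscle stem cells of the mouse, the resident precursors of muscle fibres. 3 libraries came from animals of genotype Stau+/+ (wild type) and 2 from animals of genotype Stau-/- (knockout). All 5 libraries are immunoprecipitates made with the same antibody, and no untouched input RNA was used here, so a count reflects both how abundant a transcript was and how well it was precipitated. The series title places the comparison in the study of how Staufen1 acts on the MyoD transcript in quiescent muscle stem cells. The labels do not say which part of the gene the knockout allele lacks, nor whether each library came from its own animal. The p-values thus take in only the spread among these 5 libraries, which may be technical.

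A row can lack a symbol for several reasons. Genome annotation holds many models that are not ordinary protein-coding genes: processed pseudogenes, which are intronless copies of other genes' messages; long noncoding RNAs; small nucleolar RNAs (snoRNAs), which guide chemical modification of ribosomal RNA and are mostly cut from introns of host genes; and fragments of the ribosomal RNA genes. Ribosomal RNA is transcribed as 1 long precursor, from which external and internal spacers are removed to leave the mature 18S, 5.8S and 28S RNAs. Mature ribosomal RNA and snoRNAs carry no poly(A) tail as a rule, whereas these libraries were copied with oligo(dT) priming, from 100 pg of RNA and with 13 to 15 cycles of library amplification.

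The bases of the models themselves were not used here, but RefSeq (assembly GRCm38.p6) places 20 microRNA hairpins within the spans of 12 of the models. 7 of these hairpins lie wholly inside exons of 2 models, so that for them the model is the spliced transcript that contains the hairpin. 6 of the 7 belong to the model ENSMUSG00000089726 (chr14:115042879-115046727, plus strand), which overlaps RefSeq's Mir17hg, the host transcript of the miR-17-92 cluster. The seventh lies in ENSMUSG00000097375 (chr13:48535523-48537822, minus strand) and is the let-7d hairpin. A further pair of hairpins, of miR-132 and miR-212, lies in an intron of ENSMUSG00000085609 (chr11:75172560-75177633, plus strand). The mature sequences are shown 5′ to 3′ because they are the best defined sequence elements that these models carry. Capitals mark the seed, bases 2 to 8, which pairs with target messages.
mmu-miR-17-5p: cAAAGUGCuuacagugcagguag
mmu-miR-20a-5p: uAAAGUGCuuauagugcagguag
mmu-miR-18a-5p: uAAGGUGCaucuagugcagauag
mmu-miR-19a-3p: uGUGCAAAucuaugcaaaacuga
mmu-miR-19b-3p: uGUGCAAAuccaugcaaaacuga
mmu-miR-92a-3p: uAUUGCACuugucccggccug
mmu-let-7d-5p: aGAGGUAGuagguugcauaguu
mmu-miR-132-3p: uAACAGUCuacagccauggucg
mmu-miR-212-3p: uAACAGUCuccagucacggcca

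miR-17-5p and miR-20a-5p share a seed, as do miR-19a-3p with miR-19b-3p and miR-132-3p with miR-212-3p. The libraries measured the host transcripts, not the mature microRNAs. The Mir17hg model had 9.53, 13.8 and 12.4 CPM (counts scaled to a common library size, with edgeR's TMM factors) in wild type 1 to 3, against 10.9 and 22.3 CPM in the libraries labelled knockout 1 and 2. The groups overlapped, and the log2 fold change of wild type over knockout was -0.44 (edgeR adjusted p = 0.552). The let-7d model had 6.35, 7.21 and 6.27 CPM in wild type and 10.996 and 13.4 CPM in the libraries labelled knockout. Here every library labelled knockout lay above every wild type library, but the log2 fold change of -0.87 did not pass the threshold of an adjusted p of 0.05 (edgeR adjusted p = 0.234). The miR-132 and miR-212 model was near the limit of detection, with 1.499, 4.17 and 3.09 CPM in wild type, 3.04 CPM in knockout 1 and no count in knockout 2, where a count of 0 allows up to 0.97 CPM.

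Library totals over the kept gene models came to 105473455 (wild type 1), 33846391 (wild type 2) and 70042508 (wild type 3), but to 9370244 and 3091302 in the libraries labelled knockout 1 and 2. Every library labelled knockout was shallower than every wild type library. Stau1 itself was counted at 104, 127 and 118 CPM in wild type and at 109 and 111 CPM in the libraries labelled knockout (log2 fold change 0.08, edgeR adjusted p = 0.847). Its level therefore did not separate the 2 groups and gives no check of the labels, and directions below rest on the labels. Myod1, the transcript named in the series title, had 954, 800.5 and 672 CPM in wild type and 300.2 and 457 CPM in the libraries labelled knockout (log2 fold change 1.10, edgeR adjusted p = 0.0252). That call was lost in 4 of 14 alternative analyses, namely with limma-voom and without wild type 1, wild type 3 or knockout 1. All 10 muscle stem cell markers listed were measured, with a summed level of 4754 to 5424 CPM in wild type and 2963 to 3234 CPM in the libraries labelled knockout, and 2 of them were called higher in wild type. Sdc4 weighed most in that sum, with means of 2016 against 1052 CPM. Pax7 (239 against 216 CPM), Itga7 (394 against 387 CPM) and Cd34 (83.6 against 58.3 CPM) overlapped between groups, and the others did not. In each of those others every wild type library lay above both libraries labelled knockout, an order that 20.4% of all rows showed. The 10 endothelial markers summed to 906 to 1189 CPM in wild type and to 1823 to 2241 CPM in the libraries labelled knockout, and 4 of them were called higher there. 4 of 6 red blood cell markers were measured and summed to 216 to 295 CPM against 471 and 805 CPM, with 3 called higher in knockout. 8 of 10 muscle fibre markers summed to 652 to 790 CPM against 558 and 2539 CPM, with 1 called higher in knockout, and 4 of 5 macrophage markers to 82.0 to 134 CPM against 102 and 130 CPM. No measured marker was at 0 in any library. In RNA precipitated from bulk cells, fewer cells of a type, less RNA per cell and weaker precipitation cannot be told apart.

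The models without a symbol were spread over chromosomes 1 to 19 and X, with none on Y. Chromosome 2 held the most, 32, followed by chromosome 1 with 26 and by chromosomes 17 and 8 with 24 each. As a share of all rows on a chromosome, models without a symbol made up from 2.21% on chromosome 3 to 5.21% on chromosome 18, with 4.49% on chromosome 17. 3 models lay on unplaced scaffolds (JH584293.1, JH584295.1 and JH584304.1) that hold no row with a symbol. 183 models were annotated on the plus strand and 183 on the minus strand.

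These models were short and simple in structure. The median exonic length was 1135 bases (range 57 to 14381), against 3883 bases for rows with a symbol (range 64 to 116824). 169 of the 366, or 46.2%, had a single exon, against 1.98% of rows with a symbol, and the median number of exons was 2 against 10. 16 models were shorter than the 101-base read. The 3 shortest were of 57 bases, and the 3 longest, between 10938 and 14381 bases, matched the pseudogene 5830417I10Rik, the large scaffold protein gene Ahnak2 and the imprinted noncoding transcript Rian.

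**Figure D1:**
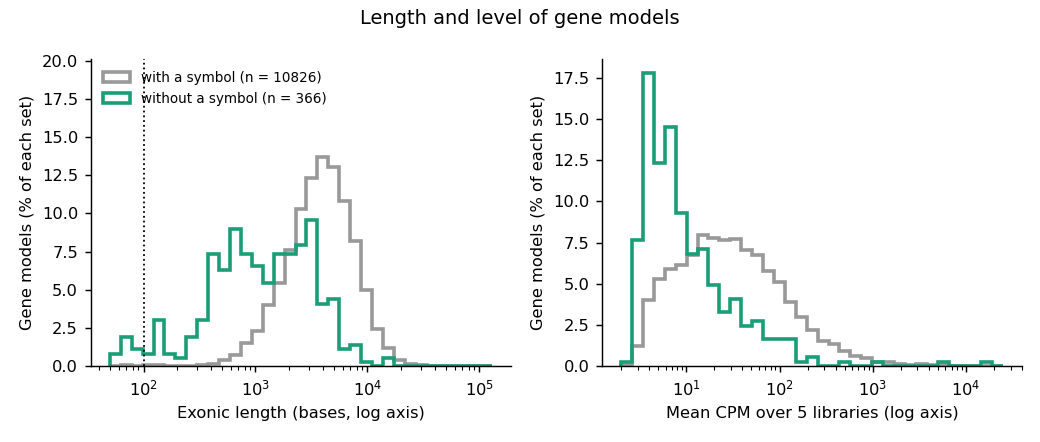
Exonic length (left, bases, log axis; the dotted line marks the 101-base read) and mean level over the 5 libraries (right, CPM, log axis) of the 366 models without a symbol and the 10826 rows with one, each as a percentage of its set. The models without a symbol sit to the left in both panels, with medians of 1135 bases and 7.32 CPM against 3883 bases and 26.8 CPM.

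They were also counted less often. The median level was 7.32 CPM against 26.8 CPM for rows with a symbol, but per kilobase of exon the medians were close, at 7.93 against 6.93 CPM per kilobase. In counts, the median model had 622.5 in wild type 1 and 26.5 in knockout 2. In knockout 2, 36 of the 366 had fewer than 10 counts and 1 had none. The table had been thinned of low rows before deposit, since the third-highest CPM of any of the 366 across the 5 libraries was never below 3.04. A model seen only in the 2 libraries labelled knockout could not have been kept by such a filter, so the 366 are those that passed it and not all models without a symbol.

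RefSeq places a gene on 344 of the 366 models, and on 22 it places none, 3 of these being the scaffold models, for which no RefSeq gene was listed. A model was called matched when it and a RefSeq gene covered at least 50% of each other's span. By that rule 215 models (58.7%) matched a gene, and for 207 of these the RefSeq symbol was on no other row of the table. Pseudogenes were the most common match with 107, followed by 43 protein-coding genes, 41 long noncoding RNAs, 21 small noncoding RNAs and 3 constant segments of antigen receptors. The matched pseudogenes were mostly single-exon models (84.1%). The other 129 models overlapped RefSeq genes only in part.

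Well-known genes stand among the matched models. Among the protein-coding matches, the highest level was that of ENSMUSG00000052429, which matched Prmt1, an arginine methyltransferase, with 205, 207 and 277 CPM in wild type and 208 and 246 CPM in the libraries labelled knockout. ENSMUSG00000029447, which matched Cct6a, a subunit of the chaperonin that folds actin and tubulin, had 181, 160.4 and 172 CPM against 134 and 126 CPM. The groups did not overlap for Cct6a, yet the log2 fold change of 0.39 did not pass the threshold (edgeR adjusted p = 0.241). ENSMUSG00000056050, over Mia3, a cargo receptor for collagen export, had 117, 132 and 115 CPM against 127 and 103 CPM, a log2 fold change of 0.07. Prmt1 and Cct6a were chosen as examples after their values were seen.

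The 2 most heavily counted models of the whole set lay at the ribosomal locus on chromosome 17. 3 models lay at that locus within a stretch without any row that has a symbol, and together they took 54.6% to 83.1% of all counts on models without a symbol. The upstream model, ENSMUSG00000097971 (chromosome 17, 39845074 to 39846245, plus strand, exons of 67 and 802 bases), overlapped no RefSeq gene and ended 108 bases before the start of Rn18s-rs5, RefSeq's 18S-related sequence (39846354 to 39848202). The second, ENSMUSG00000098178 (39846958 to 39848788, plus strand, 1 exon of 1831 bases), had 1245 of its bases inside Rn18s-rs5 and 586 past its end, and is called the 18S model here. The other model, ENSMUSG00000045999 (39848103 to 39848827, minus strand, 4 exons), shared 675 of its 714 bases with the 18S model on the other strand. RefSeq also places a long noncoding gene across the end of both (39848112 to 39898385). Ribosomal RNA genes are present in many near-identical copies, most of them not in the assembly, so counts at these models stand for whichever copies the aligner placed there.

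The upstream model was counted at 26164, 18941 and 9473 CPM in wild type 1 to 3 and at 14873 and 6684 CPM in the libraries labelled knockout 1 and 2. Its level varied as much within a group as between them. Wild type 1 was 2.76-fold above wild type 3, the groups overlapped, and the means of 18193 ± 8371 CPM (SD, n = 3) and 10778 ± 5790 CPM (SD, n = 2) gave a log2 fold change of 0.76 (edgeR adjusted p = 0.262), which ran from 0.29 without knockout 2 to 1.45 without knockout 1. A fit blocked on the replicate number gave the upstream model 1.16 (edgeR adjusted p = 0.00177), but the labels do not say whether that number pairs the libraries. Wild type 3, the lowest wild type library here, has no knockout library of its number. The blocked contrast thus rests on replicates 1 and 2 only. The fit without a block and without wild type 3 gave 1.06 (edgeR adjusted p = 0.155). The 18S model had 8582, 6538 and 3295 CPM in wild type and 6558 and 3781 CPM in the libraries labelled knockout, with a log2 fold change of 0.25 (edgeR adjusted p = 0.715). Both models ranked the wild type libraries in the same order, wild type 1 highest and wild type 3 lowest, and both were higher in knockout 1 than in knockout 2. The sign of the 18S model's fold change rested on single libraries, being -0.08 without wild type 1 and -0.10 without knockout 2.

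The minus-strand model had 29.6, 18.4 and 15.4 CPM in wild type and 26.9 and 6.36 CPM in the libraries labelled knockout, the last of these from 20 counts. Its log2 fold change of 0.27 did not pass the threshold (edgeR adjusted p = 0.787) and was -0.35 without knockout 2. It drew 1.68 to 4.66 counts for every 1000 counts of the 18S model. Whether the counting used the strand is not given in the sources used here, so reads from the 18S model and from its opposite-strand partner cannot be told apart.

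As a share of all counts, the locus took 3.41%, 2.48% and 1.30% in wild type and 2.19% and 1.06% in the libraries labelled knockout. The group means of 2.39% ± 1.06 (SD, n = 3) and 1.63% ± 0.793 (SD, n = 2) did not differ beyond the spread (two-sided exact permutation p = 0.4, where 3 libraries against 2 can give no p below 0.2). Outside the locus, the remaining 363 models without a symbol took 0.692%, 0.808% and 0.718% of counts in wild type and 0.966% and 0.885% in the libraries labelled knockout. Those groups did not overlap, with means of 0.740% ± 0.0609 (SD, n = 3) and 0.926% ± 0.0570 (SD, n = 2), and the p of 0.2 was the smallest the exact permutation test can give.

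The proportion between the 2 plus-strand models was steadier than their levels. Each count of the 18S model came with 3.05, 2.90 and 2.88 counts of the upstream model in wild type, against 2.27 and 1.77 in the libraries labelled knockout. The wild type ratios lay close together although the locus's share of counts differed 2.63-fold among them, and both ratios of the libraries labelled knockout lay below all 3. The libraries labelled knockout were also the shallowest, so depth and genotype cannot be told apart for this ratio. The means were 2.94 ± 0.0945 (SD, n = 3) and 2.02 ± 0.354 (SD, n = 2), with a two-sided exact permutation p of 0.2, again the smallest possible. This ratio was examined after the values had been seen. Per kilobase of exon, the upstream model stood at 6.06 to 6.42 times the level of the 18S model in wild type and at 3.72 and 4.78 times in the libraries labelled knockout. These figures use all 1831 bases of the 18S model, 675 of them shared with the opposite-strand model. How reads over the shared bases were counted is not given, so the size of the figures is uncertain.

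**Figure D2:**
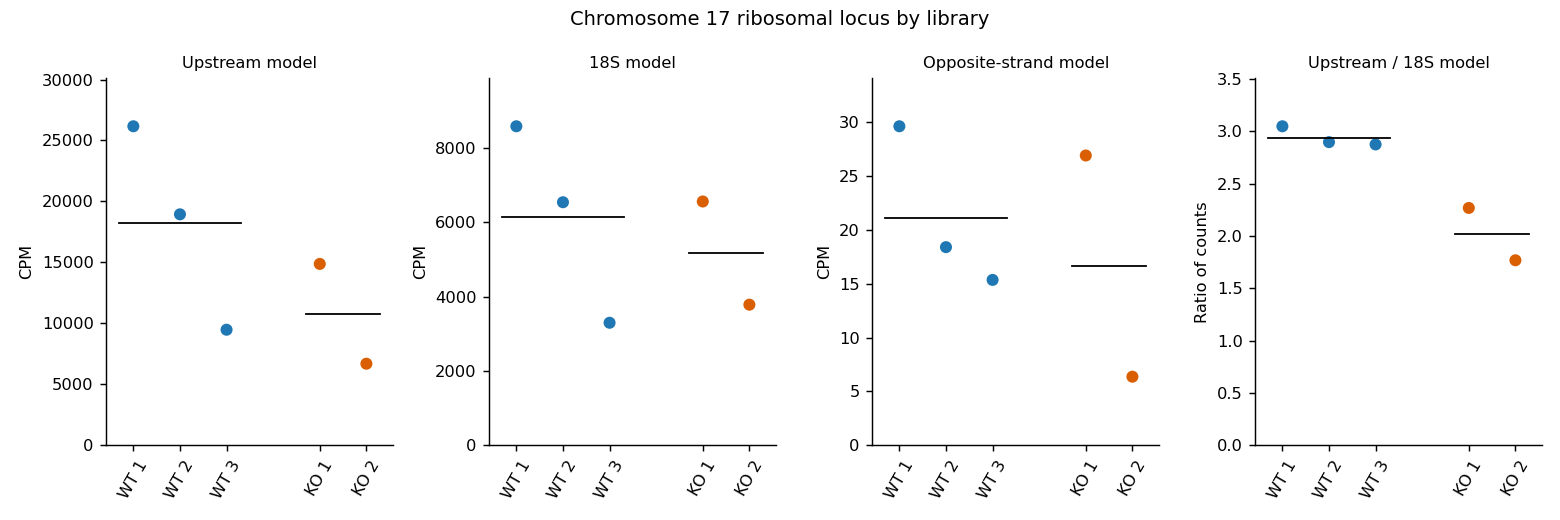
Levels of the 3 models of the chromosome 17 ribosomal locus (CPM, first 3 panels) and counts of the upstream model per count of the 18S model (last panel), 1 point per library, with lines at group means; WT is wild type, KO is labelled knockout, and all axes start at 0. Levels overlap between groups in each of the first 3 panels, whereas the ratio is 2.88 to 3.05 in wild type and 1.77 and 2.27 in the libraries labelled knockout, which are also the shallowest.

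Other genes of the ribosomal RNA pathway were read from a list of 45 symbols, 3 of them newer names of genes also listed under older ones, that covers RNA polymerase I and its factors, snoRNA-associated proteins and processing factors. All 42 genes were measured, and edgeR called 0 of them in either direction, while limma-voom and DESeq2 also called 0. At an unadjusted p under 0.05, edgeR gave 2 on the wild type side and 5 on the knockout side, beside 10.4% and 9.99% of all rows. Their median log2 fold change was -0.15, against 0.00 over all rows. The 3 of smallest p were Taf1d, a subunit of the polymerase I selectivity factor, with means of 229.7 against 359 CPM (log2 -0.65, edgeR adjusted p = 0.171), the polymerase I subunit Znrd1 with 85.4 against 122 CPM (-0.51, 0.181) and the snoRNA-associated protein Nop56 with 229.5 against 319 CPM (-0.47, 0.219).

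Across all 366 models, 3 were called higher in wild type and 5 higher in the libraries labelled knockout by edgeR at an adjusted p under 0.05, and 358 were not called. That is 2.19% of the models, beside 2.05% of all 11194 rows (1.05% on the wild type side and 1.00% on the knockout side), so calls were about as common here as in the table at large. At an unadjusted p under 0.05, 16 models lay on the wild type side and 54 on the knockout side, which is 4.37% and 14.8% of them, beside 10.4% and 9.99% of all rows. The counts moved with single libraries. Without wild type 1, wild type 3 or knockout 1, none was called higher in wild type (12, 7 and 24 at an unadjusted p under 0.05), and 1 was without knockout 2. Those called higher in knockout numbered 2, 11, 1 and 3 without wild type 1, wild type 2, wild type 3 and knockout 1. Over all rows the calls moved too, from 0.0983% to 1.57% higher in wild type and from 0.205% to 1.54% higher in knockout when 1 library was left out. limma-voom called 0 models higher in wild type (5 unadjusted) and 1 higher in knockout, where it called 0.0715% and 0.125% of all rows. DESeq2 called 5 and 16, beside 3.87% and 4.08% of all rows. These held 3 of the 3 edgeR calls on the wild type side and 4 of the 5 on the knockout side. With libraries scaled by their total counts, 2 and 7 were called (0.831% and 1.28% of all rows), and with every library thinned to the depth of knockout 2, 2 and 9 (1.44% and 1.60%).

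The model with the largest change was ENSMUSG00000063696, a single-exon model of 1075 bases on chromosome 8 (102864779 to 102865853, minus strand) that matched the RefSeq pseudogene Gm8730. It had 8.64, 10.0 and 9.76 CPM in wild type 1 to 3 and 302 and 90.3 CPM in the libraries labelled knockout 1 and 2. The wild type libraries lay within a narrow band and both libraries labelled knockout lay far above it, though they differed 3.34-fold from each other. In the edgeR fit the model was 20.9-fold higher in knockout (log2 fold change -4.38, SE 0.37, edgeR adjusted p = 0.000108), and it was called in all 14 alternative analyses, including each of the 5 that left out 1 library. A pseudogene can share most of its sequence with its parent gene, so how reads were divided between the copies is uncertain.

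4 further models were called higher in knockout, with smaller fold changes. ENSMUSG00000087196 (chromosome 2, 28315016 to 28324050, minus strand, 3 exons), whose span holds the noncoding gene Gm13373, was the most even of them within groups. It had 16.9, 18.6 and 17.05 CPM in wild type and 43.9 and 41.0 CPM in the libraries labelled knockout, a 2.43-fold difference in the edgeR fit (log2 -1.28, SE 0.24, edgeR adjusted p = 0.0198). Its log2 fold change stayed between -1.33 and -1.23 whichever library was left out, although the call was not made without wild type 1, wild type 3 or knockout 1.

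ENSMUSG00000085334 (chromosome 4, 127033731 to 127049398, plus strand, 4 exons) begins within the locus of Sfpq, a splicing factor of paraspeckles. It shares 216 exonic bases with the Sfpq row on the same strand and 1709 with Zmym1 on the other strand. It had 22.3, 58.4 and 50.0 CPM in wild type and 119 and 121 CPM in the libraries labelled knockout (log2 -1.47, SE 0.31, edgeR adjusted p = 0.0286). The Sfpq and Zmym1 rows themselves had log2 fold changes of -0.12 and -0.32 with edgeR adjusted p of 0.806 and 0.747. Its log2 fold change ran from -1.73 to -1.16 when 1 library was left out, and the call was not made without wild type 3 or without either library labelled knockout.

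ENSMUSG00000086018 (chromosome 2, 4586024 to 4587287, minus strand) shares 641 of its 978 exonic bases with Frmd4a on the other strand and overlaps the noncoding gene Gm13179. It had 1.09, 3.28 and 2.54 CPM in wild type and 16.97 and 7.32 CPM in the libraries labelled knockout (log2 -2.44, SE 0.56, edgeR adjusted p = 0.0425), and the Frmd4a row had a log2 fold change of -0.38. ENSMUSG00000075014 (chromosome 2, 98666547 to 98667301, minus strand, 5 exons), with no RefSeq gene, had 17.01, 28.2 and 7.38 CPM in wild type and 189 and 18.8 CPM in the libraries labelled knockout. This model passed the threshold although its groups overlapped (log2 -2.61, SE 0.63, edgeR adjusted p = 0.0491). Without knockout 1 its log2 fold change was -0.10, and its adjusted p over all alternatives ran from 0.000414 to 0.937. Neither of these 2 models was called when wild type 1, wild type 3 or knockout 1 was left out.

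3 models were called higher in wild type, and in each of them every wild type library lay above both libraries labelled knockout. ENSMUSG00000053664 (chromosome 1, 167223827 to 167223919, minus strand) is a single exon of 93 bases, shorter than a read, inside the span of Uck2, a uridine kinase. It had 12.9, 9.76 and 14.1 CPM in wild type and 2.62 and 3.499 CPM in the libraries labelled knockout, a 4.13-fold difference in the edgeR fit (log2 2.05, SE 0.46, edgeR adjusted p = 0.0396). ENSMUSG00000096506, on the scaffold JH584293.1 (103128 to 104629, plus strand, 312 exonic bases), had 51.9, 42.9 and 48.5 CPM against 21.4 and 18.5 CPM (log2 1.25, SE 0.25, edgeR adjusted p = 0.0224). ENSMUSG00000082902 (chromosome 4, 41921405 to 41923020, plus strand, 327 exonic bases) matched Ccl19-ps1, a pseudogene of the chemokine gene Ccl19, and had 96.3, 98.7 and 106 CPM against 51.7 and 61.1 CPM (log2 0.84, SE 0.20, edgeR adjusted p = 0.0490). The last call was lost whichever library was left out, and each of the first 2 was kept in 1 of the 5 analyses that left out a library, the one without wild type 2.

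**Figure D3:**
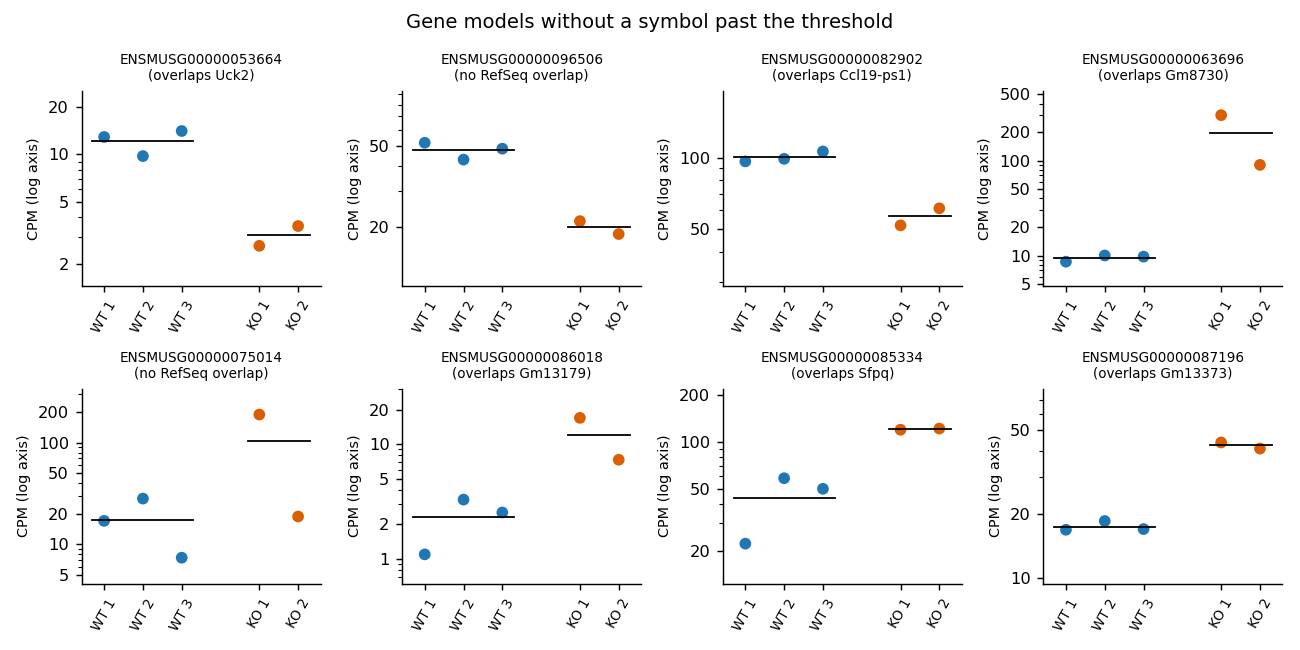
CPM (log axes, with a different range in each panel) of the 8 models past an edgeR adjusted p of 0.05, 1 point per library, with lines at group means and the RefSeq gene whose span each model overlaps in brackets; WT is wild type, KO is labelled knockout. The groups are apart in all panels but that of ENSMUSG00000075014, where knockout 2 (18.8 CPM) lies below wild type 2 (28.2 CPM).

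Beyond the calls, models without a symbol lay more often on the knockout side. Their median log2 fold change was -0.28, against 0.01 for rows with a symbol, and 62.8% of them were below 0 against 49.3%. The median stayed negative in every alternative analysis run, from -0.33 to -0.18. It was nearest 0 without knockout 2 (-0.18), wild type 1 (-0.19) or knockout 1 (-0.19). With every library thinned to the depth of knockout 2 it was also -0.19. 99 models had both libraries labelled knockout above all 3 wild type libraries and 52 the reverse, while 215 overlapped; over all rows 18.1% and 20.4% were apart in these directions, and 38.4% in either. All rows were divided at 14.5 and 47.8 CPM into 3 bins of equal size by mean level. The median was -0.28 for the 261 models in the lowest bin and -0.31 for the 69 in the middle one, against -0.06 and 0.02 for rows with a symbol. For the 36 models in the highest bin it was 0.00 against 0.03. These medians describe the models and were not tested.

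The median log2 fold change was nearest 0 for models that match protein-coding genes and below 0 for the other matched classes. It was 0.02 for the 43 protein-coding matches, with 18 below 0, and -0.32 for the 107 pseudogenes, with 76 below 0. It was -0.35 for the 41 long noncoding RNAs, with 29 below 0, and -0.69 for the 21 small noncoding RNAs, with 16 below 0. For the 3 antigen-receptor segments it was -0.94. The 22 models without a RefSeq gene had a median of 0.30, and the 129 partial overlaps one of -0.24.

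**Figure D4:**
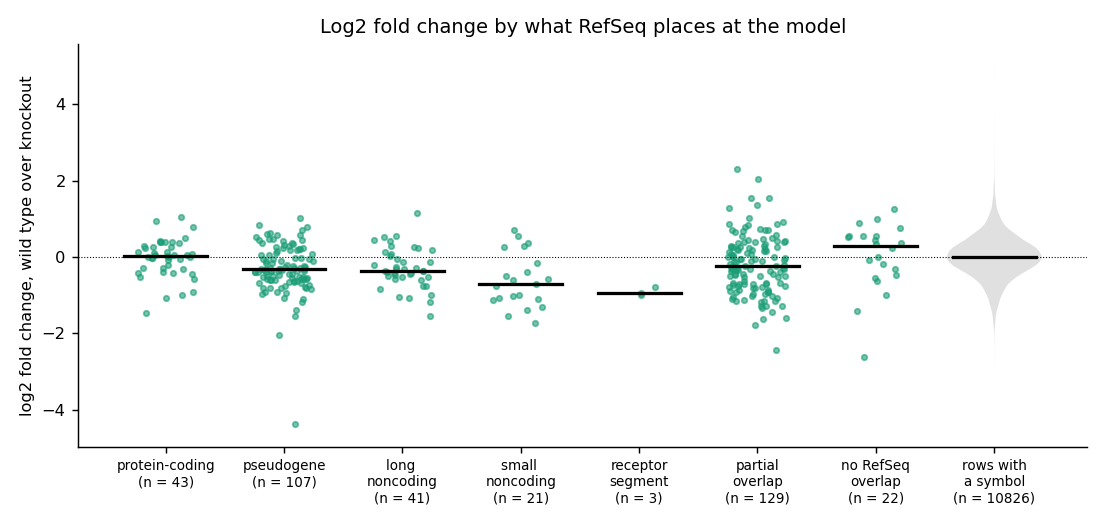
Log2 fold change of wild type over the libraries labelled knockout for each model without a symbol (points), grouped by what RefSeq places at its coordinates, beside the distribution over the 10826 rows with a symbol (grey); bars are medians and the dotted line is no difference. Medians fall from 0.02 for protein-coding matches to -0.32 for pseudogenes, -0.35 for long noncoding and -0.69 for small noncoding RNAs.

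Among long noncoding RNAs, edgeR called 0 of 41 in either direction. At an unadjusted p under 0.05, 1 lay on the wild type side and 6 on the knockout side, beside 10.4% and 9.99% of all rows. limma-voom called 0 and DESeq2 called 2 higher in knockout, beside 4.08% of all rows. The examples here other than Zfas1, Rian and Gm15564 were picked after their values were seen. ENSMUSG00000097188 matched Snhg1, a snoRNA host transcript, and had 64.1, 128 and 90.7 CPM in wild type and 176 and 196 CPM in the libraries labelled knockout. It lay just outside the threshold (log2 -0.98, SE 0.25, edgeR adjusted p = 0.0544). ENSMUSG00000074578 matched Zfas1, another snoRNA host transcript and the most counted of these models on chromosome 2 (167062934 to 167065862, plus strand), and had 55.4, 59.4 and 48.9 CPM against 81.5 and 80.5 CPM (log2 -0.57, edgeR adjusted p = 0.132). Chaserr, a noncoding RNA next to the chromatin remodeller gene Chd2, matched ENSMUSG00000098496, which had 79.0, 86.6 and 79.0 CPM against 104 and 128 CPM (log2 -0.50, edgeR adjusted p = 0.165). In these 3 models every library labelled knockout lay above every wild type library. Of all 41, 8 showed this order and 5 the reverse, beside 18.1% and 20.4% of all rows.

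The longest model, ENSMUSG00000097451 over Rian (chromosome 12, 109603940 to 109661716, plus strand), showed no such separation. It had 84.0, 127 and 101 CPM in wild type and 171 and 86.8 CPM in the libraries labelled knockout, and its log2 fold change of -0.32 was 0.26 without knockout 1. ENSMUSG00000086324, over the noncoding gene Gm15564 (chromosome 16, 35966752 to 35983230, minus strand), was the most highly counted long noncoding model. It had 535, 520.2 and 219 CPM in wild type, against 499 and 554 CPM in the libraries labelled knockout (log2 -0.31, edgeR adjusted p = 0.594), with wild type 3 standing lowest.

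Of the 107 pseudogene matches, 1 was called in each direction, beside 1.05% (wild type side) and 1.00% (knockout side) of all rows. They are the Ccl19-ps1 and Gm8730 models above. ENSMUSG00000082532, over the ribosomal protein pseudogene Rpl31-ps6, came next by p with 1.97, 4.59 and 2.85 CPM in wild type and 10.996 and 14.6 CPM in the libraries labelled knockout (log2 -2.03, edgeR adjusted p = 0.0521). The groups did not overlap, and this model was chosen for its p. ENSMUSG00000095562, over Erdr1, had 51.3, 166 and 157 CPM in wild type and 61.5 and 301 CPM in the libraries labelled knockout, a wide spread inside each group. It was picked after its values were seen.

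The 3 antigen-receptor segments all had a log2 fold change below 0, and none was called by edgeR, limma-voom or DESeq2. By edgeR, 2 lay on the knockout side at an unadjusted p under 0.05, beside 9.99% of all rows. Igkc, the constant region of the kappa light chain, had 26.5, 12.9 and 25.05 CPM in wild type and 39.80 and 42.9 CPM in the libraries labelled knockout (log2 -0.94, edgeR adjusted p = 0.106). Ighm, the heavy chain constant region of IgM, had 16.5, 12.8 and 22.0 CPM against 14.7 and 55.7 CPM, with knockout 2 alone standing high. Trbc1, a T cell receptor constant region, had 1.596, 1.64 and 3.61 CPM against 3.77 and 4.14 CPM. These transcripts belong to lymphocytes. The endothelial and red blood cell marker sums given above were higher in both libraries labelled knockout, whereas the macrophage marker sums overlapped between groups. The part of such cells in these results was not tested.

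17 of the small noncoding models matched snoRNAs, the guides of ribosomal RNA modification. Their median log2 fold change was -0.69 and 14 were below 0, yet edgeR called 0 of the 21 small noncoding models. Unadjusted, 1 lay on the wild type side and 8 on the knockout side, beside 10.4% and 9.99% of all rows. limma-voom called 0, and DESeq2 called 2 higher in knockout, beside 4.08% of all rows. 8 of the 17 had both libraries labelled knockout above all wild type libraries, and 1 the reverse, beside 18.1% and 20.4% of all rows. Snord72, in Rpl37, matched ENSMUSG00000077737, which had 8.27, 17.6 and 12.6 CPM in wild type and 25.8 and 26.4 CPM in the libraries labelled knockout (log2 -1.03, edgeR adjusted p = 0.113). This example was picked after its values were seen.

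The highest snoRNA model per kilobase had a positive log2 fold change. ENSMUSG00000064841 (chromosome 5, 121205010 to 121205143, plus strand), in an intron of Rpl6, had 56.4, 76.5 and 61.4 CPM in wild type and 25.03 and 56.6 CPM in the libraries labelled knockout (log2 0.70, edgeR adjusted p = 0.210). The groups overlapped, and the value was 0.19 without knockout 1 and 1.37 (edgeR adjusted p = 0.0448) without knockout 2. A pair of 65-base snoRNA models in introns of Rpl17 on chromosome 18, ENSMUSG00000064647 and ENSMUSG00000064844, had log2 fold changes of -0.99 and -1.07 (edgeR adjusted p = 0.166 and 0.120). Wild type 1, the deepest library, stood lowest of all 5 libraries in 13 of the 17 snoRNA models and lowest of the wild type libraries in 16. Over all 366 models it was the lowest wild type library in 52.7%, against 33.2% of rows with a symbol. Its part in the snoRNA values was not tested.

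13 of the snoRNA models lay inside 12 host rows on the same strand, 8 of which encode ribosomal proteins. The hosts' median log2 fold change was -0.22, and 10 of the 13 snoRNA models had a lower value than their host. 5 further small models stood in a row on chromosome 9 (15313802 to 15316808), just past the end of the Taf1d row, and all 5 had values below 0, with a median of -0.57. Their levels were low, the highest being 12.7 CPM in any library.

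Models inside introns of other genes lay further on the knockout side than the rest. 98 models lay wholly inside an intron of another row, 61 on the host's strand and 37 on the other strand. Their median log2 fold change was -0.53 and 78.6% were below 0, against a median of -0.10 and 57.1% for the 268 models not inside an intron. On the host's strand the median was -0.60 and on the other strand -0.39. edgeR called 0 of the 98 (2 on the wild type side and 23 on the knockout side unadjusted, beside 10.4% and 9.99% of all rows), limma-voom called 0, and DESeq2 called 7 higher in knockout, beside 4.08% of all rows. The median remained below 0 in each alternative analysis run, from -0.75 without wild type 2 to -0.40 without knockout 2.

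The host genes were centred near 0. For 97 of the 98 models the host had a symbol, and the 93 hosts had a median log2 fold change of 0.02, with 46 below 0. 76 of the 97 models had a lower value than their host. edgeR called 3 of the 93 hosts, all higher in wild type, beside 1.05% of all rows on that side. They were Lamc1, a laminin chain, at 1.05, Ltbp1, a latent TGF-beta binding protein, at 1.03, and Egfr, the epidermal growth factor receptor, at 1.07. The models in their introns were at 0.70, -0.92 and -0.36. Reads from unspliced host RNA fall in introns too, and the table gives no way to separate them from a model's own transcript.

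**Figure D5:**
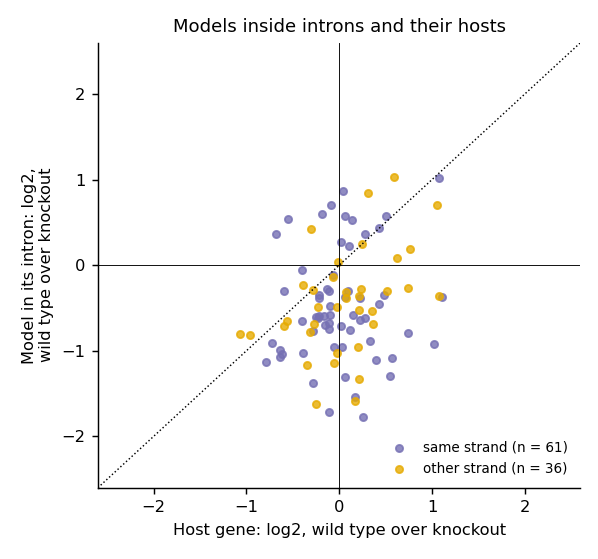
Log2 fold change of wild type over the libraries labelled knockout for 97 models inside an intron of a row with a symbol (vertical axis) against that of the host row (horizontal axis), coloured by strand; the dotted line marks equal values. 76 of the 97 points lie below the line, and 76 lie below 0 on the vertical axis while 46 of the 93 hosts do on the horizontal.

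The highest level per kilobase of all 366 models belonged to an intronic model. ENSMUSG00000076258 (chromosome 16, 11144125 to 11144181, plus strand, 57 bases) lay inside an intron of Zc3h7a on the opposite strand. It had 987, 1198 and 608 CPM in wild type and 1675 and 929.9 CPM in the libraries labelled knockout. That was 18939.7 CPM per kilobase over the 5 libraries, although a rate per kilobase is inflated for a model shorter than a read. At the ribosomal locus on chromosome 17, the upstream model had 17523 and the 18S model 3141 CPM per kilobase. The groups overlapped (log2 -0.49, edgeR adjusted p = 0.344). The other 2 models of 57 bases, ENSMUSG00000076281 in an intron of the kinase gene Peak1 and ENSMUSG00000088609 with no RefSeq gene, had means of 14.7 against 29.4 CPM and 15.2 against 21.5 CPM. The log2 fold change of the first was -1.03, but -0.28 without knockout 1 and -1.48 (edgeR adjusted p = 0.0357) without knockout 2. That of the second was -0.55, but 0.94 without knockout 1.

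Models that start close to another gene on the opposite strand showed little shift. 43 had a start within 1000 bases of the start of an opposite-strand row. Their median log2 fold change was -0.11 and that of their partners 0.04, and edgeR called 0 of the 43. Unadjusted, 3 lay in each direction, beside 10.4% (wild type side) and 9.99% (knockout side) of all rows. limma-voom called 0, and DESeq2 called 1 in each direction, beside 3.87% and 4.08% of all rows. 284 of the 366 models shared no exonic base with any other row, 59 shared bases with a row on the other strand, 18 with one on the same strand and 5 with both.

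On the scaffolds, the 3 models did not move together. ENSMUSG00000096506, called higher in wild type above, was joined by ENSMUSG00000095742 (JH584295.1, 66 to 1479, minus strand), with 104, 100.5 and 86.3 CPM in wild type and 68.4 and 82.4 CPM in the libraries labelled knockout (log2 0.37, edgeR adjusted p = 0.328). ENSMUSG00000095041 (JH584304.1, 52190 to 59690, minus strand) lay on the other side, with 62.3, 136 and 97.9 CPM against 186 and 206 CPM (log2 -0.99, edgeR adjusted p = 0.0621). It is given to complete the 3.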

How the data were processed

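RNA from 5 anti-Staufen1 immunoprecipitates was counted per gene. The deposited table holds raw counts, made by the authors with Trim Galore, STAR, featureCounts (Subread) and edgeR on mm10, per the submitters' processing notes; no version, annotation release or strand setting was stated in the sources used here. The whole table went unchanged into edgeR 4.0.16 under R 4.3.3, with filterByExpr (which removed 0 rows), TMM factors and the two-sided quasi-likelihood test of genotype on all 11194 rows, with Benjamini-Hochberg adjustment over all of them and a threshold of 0.05. The pipeline was tested on simulated counts. A positive log2 fold change means a higher level in wild type. SEs come from the coefficient and its F statistic. CPM values use TMM-scaled library sizes, with exonic length as deposited. A count of 0 allows up to 3 counts. Such limits cover counting error only.

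Models were described through RefSeq genes overlapping their coordinates, since no symbol or Entrez identifier was given for them and the RefSeq table pairs none of their identifiers with names; RefSeq strands were not used. Named models are those of the chromosome 17 locus, all called models, the 10 highest per kilobase, the 3 longest and 3 shortest, and the most counted on each of the 3 chromosomes holding most models; other models were named after their values were seen. The models, lists and rules were chosen with earlier results of these data known. Alternatives were RLE factors, total counts, no filter, a mean of at least 5 CPM, thinning to the shallowest library, limma-voom (limma 3.58.1), DESeq2 1.42.0, a replicate block, leaving out each library and, added after seeing the data, leaving out the ribosomal locus.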

Additional observations from a re-analysis of the deposited data

How the results depend on the processing

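The median log2 fold change of the models without a symbol (-0.28) and of those inside introns (-0.53) kept its sign in every alternative run. The count called higher in wild type, 3, stayed at 2 or 3 with RLE factors, total counts, no filter, a mean of at least 5 CPM, thinning, or without the ribosomal locus. It was 0 with limma-voom (5 unadjusted), 5 with DESeq2, and 0 to 2 when 1 library was left out. The count called higher in knockout, 5, was 5 to 7 with RLE factors, total counts, no filter, the 5 CPM minimum, or without the locus. It was 9 after thinning, 1 with limma-voom, 16 with DESeq2, and 1 to 11 when 1 library was left out. Same-numbered libraries deviated together only weakly (r = 0.05 and 0.04). The deviations of the 2 knockout libraries mirror each other, so this cannot show whether the numbers pair the libraries. A fit blocked on the replicate number called 6 models higher in wild type and 15 in knockout, beside 2.57% and 2.89% of all rows. Replicate 3 exists only in wild type, so the contrast of that fit rests on replicates 1 and 2. The difference in the share of counts on all models, 0.582 percentage points, ran from -0.0192 (without knockout 2) to 1.18 when 1 library was left out, and that of the locus, 0.768, from 0.207 to 1.33. The difference in upstream counts per 18S-model count, 0.923, ran from 0.673 to 1.17. Of 333 alternative values for 24 named models, 280 kept their side of the threshold and direction, 36 were no longer called, 4 became called and 13 changed sign. Those that became called were ENSMUSG00000097971 (1.16, edgeR adjusted p = 0.00177) and ENSMUSG00000064647 (-1.36, 0.0198) with the block, and ENSMUSG00000064841 (1.37) and ENSMUSG00000076281 (-1.48) without knockout 2. When 1 library was left out, the models that changed sign ranged as follows: ENSMUSG00000098178 from -0.0954 (without knockout 2; -0.08 without wild type 1) to 0.699, ENSMUSG00000045999 from -0.347 (without knockout 2; -0.05 without wild type 1) to 1.73, and ENSMUSG00000056050 from -0.0603 (without knockout 2) to 0.231. ENSMUSG00000076258 ranged from -0.848 to 0.0015, ENSMUSG00000088609 from -1.20 to 0.94, ENSMUSG00000072812 from -0.012 to 1.10 and ENSMUSG00000097451 from -0.715 to 0.26, with the changed sign without knockout 1. ENSMUSG00000078684 ranged from -0.372 to 0.15 (0.0068 without wild type 3, 0.15 without knockout 2) and was 0.024 with the block, where ENSMUSG00000086324 was 0.0051. The causes were not tested. Leaving out a knockout library leaves 1, which is assumed to vary like the others. Knockout 2, with 3091302 counts, limits the models of few counts most.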
